A study of Mus musculus with 9 samples.

Results

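Spleen-derived monocytes of wild-type (WT) mice that had been primed with lipopolysaccharide (LPS) and then given octanal were compared with untreated cells of the same kind by RNA sequencing. The comparison takes the 3 libraries of LPS with octanal and the 3 untreated libraries, 6 of the 9 libraries in the series, and covers all 15447 genes that passed a filter on low counts. The untreated cells received the solvent DMSO at a dilution of 1 in 1000. The treated cells had low-dose LPS first and octanal at 20 µM for 18 h afterwards. The remaining 3 libraries, from cells given LPS alone at 40 ng/ml for 5 h, entered the fit to estimate the spread between replicates and are quoted beside some results. Within a group the sample labels step up by 1, giving octanal for 18, 19 and 20 h and dilutions of DMSO of 1 in 1000, 1001 and 1002. These samples were taken as replicates of 1 condition. The dose and duration of LPS in the cells given octanal are not stated per sample, nor is the solvent of octanal or the time untreated cells spent in culture. LPS, octanal, solvent and time in culture therefore cannot be told apart in this comparison. Whether replicates are separate animals or cultures is not stated. The p-values therefore reflect the spread among these samples alone, which may be technical. The series title names the olfactory receptor Olfr2, the nuclear receptor NR4A1 and the fission protein Drp1 in monocytes during cardiac ischaemia and reperfusion. Olfr2 itself was not analysed here.

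LPS is a glycolipid of the outer membrane of Gram-negative bacteria. Toll-like receptor 4, with its co-receptor CD14, detects it and signals through NF-kappaB and MAP kinases to cytokine and chemokine genes, while the same signal induces inhibitors that damp it. Octanal is a medium-chain aldehyde and a ligand of Olfr2, a G protein-coupled receptor whose class couples to adenylyl cyclase. The spleen holds a reserve of monocytes, which can leave for injured tissue such as the infarcted heart.

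Total counts lay between 29594291 and 38388421 per library, and mitochondrially encoded transcripts took 2.85% ± 0.987 of counts in untreated and 2.82% ± 0.443 in LPS with octanal libraries (SD, n = 3 each). On the first principal component of these 6 libraries, with 47.5% of the variance, untreated libraries scored -83.6, -21.0 and -38.4 against 50.8, 54.8 and 37.3 for the treated ones, so the groups did not overlap. Replicates varied more in the untreated group, where the median gene had an SD of 0.31 in log2 CPM, than in the treated one, at 0.22, and untreated replicates 1 and 2 lay farthest apart. Csf1r and Lyz2, from the macrophage and classical monocyte marker lists, were expressed in all 6 libraries. Csf1r, the receptor of the growth factor CSF1, was at 659, 268 and 279.5 CPM in the untreated libraries and 311, 419.7 and 407 CPM in the LPS with octanal libraries. Lyz2, lysozyme, was at 10176, 3589.7 and 6060.1 CPM in the untreated libraries and 2460.4, 3440.2 and 4284 CPM in the LPS with octanal libraries. These genes alone do not establish the labelled cell type. Of their lists, 9 of 16 macrophage markers and 6 of 13 classical monocyte markers were called lower, and 1 of each was called higher. Ly6c2, which marks classical monocytes, was at 168, 2.82 and 249 CPM in untreated replicates 1, 2 and 3 and at 1.01, 0.994 and 0.625 CPM in the treated ones, so it was near 0 in all LPS with octanal libraries and low in untreated replicate 2. Markers of other cells were present too: the neutrophil list of 19 genes summed to 28256, 15945 and 31067 CPM in the untreated libraries and 9525, 6536 and 14828 CPM in the LPS with octanal libraries. The T cell list of 13 summed to 182, 1227 and 765 CPM in the untreated libraries and 2039, 1477 and 1286 CPM in the LPS with octanal libraries. In bulk libraries, fewer cells of a type and less RNA per cell cannot be told apart.

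Expression differed between the groups in both directions, with more falls than rises. Of 15447 genes tested, edgeR's quasi-likelihood test called 1339 at an adjusted p under 0.05 (8.67%). Of these, 407 rose (2.63%) and 932 fell (6.03%). A change of at least 2-fold was called for 846 genes (5.48%), 200 up (1.29%) and 646 down (4.18%). Called rises had a median log2 fold change of 0.99 and called falls one of -1.37, against a median of -0.01 over all genes tested. The log2 fold change was positive for 49.4% of all genes tested. Changes over 8-fold were called for 37 rises and 58 falls. The libraries of both groups did not overlap for 4604 genes (29.8%). Leaving out single libraries moved the number of calls: it was 298, 670 and 789 when LPS with octanal replicates 2, 3 and 1 were left out, 623 and 2137 for untreated replicates 1 and 2, and 787 and 810 for LPS replicates 3 and 2. The 2-fold count was 255, 556, 536, 407, 1284, 589 and 610 in the same fits. All 1339 genes kept their direction in each of the 9 fits that left out 1 library, and 272 of them (111 higher and 161 lower) were called in every one. Genes named below were called in all 9 such fits unless the text says otherwise, and where several libraries are named beside a lost call or a changed count, each was left out on its own. The 12 largest rises and 12 largest falls were picked among genes without overlap between the groups. For these the lack of overlap was set by that rule and is no further result.

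**Figure D1:**
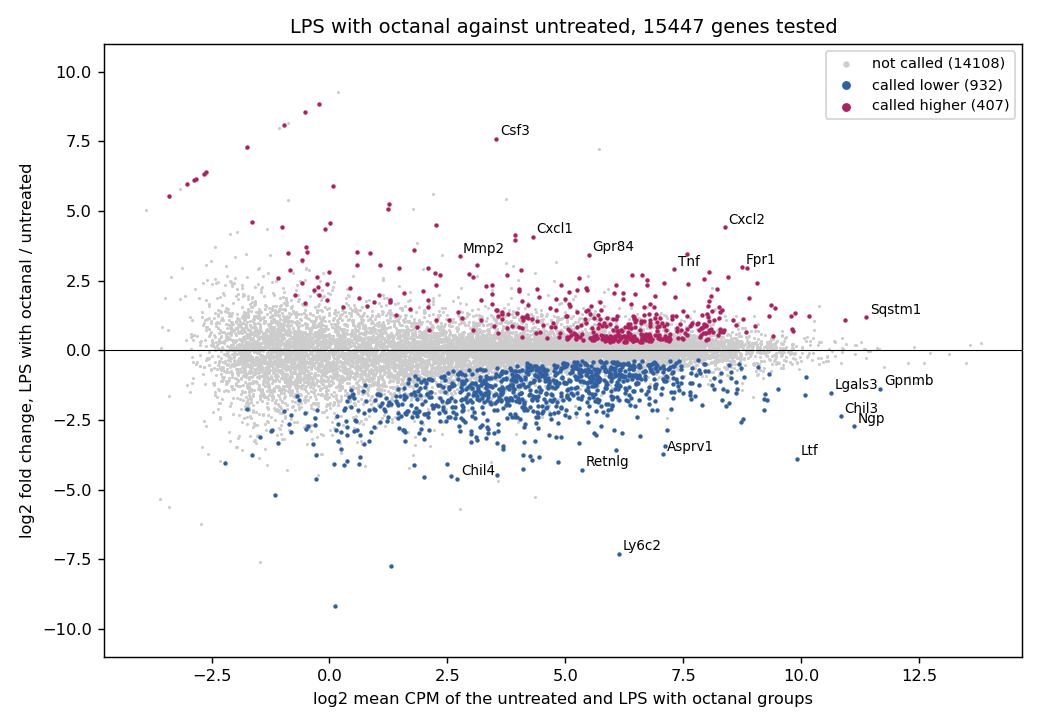
Log2 fold change of LPS with octanal over untreated (vertical axis) against the log2 mean CPM of the 2 groups (horizontal axis), with 1 point per tested gene. The 407 called rises (red) and 932 called falls (blue) are drawn over the genes that were not called (grey); Ly6c2 lies lowest and Csf3 highest among the labelled genes.

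Chemokine genes that attract neutrophils were among the largest rises. Cxcl2, a ligand of the receptor CXCR2 (chr5:90903871-90905938, GRCm38), was at 25.1, 32.6 and 32.02 CPM in the untreated libraries and 466, 713 and 734 CPM in the LPS with octanal libraries. All treated libraries lay above all untreated ones (log2 fold change 4.42, SE 0.23, adjusted p = 0.00017). Cxcl1, a second CXCR2 ligand (chr5:90891241-90893115), was at 2.96, 1.64 and 1.98 CPM in the untreated libraries and 35.4, 41.5 and 35.3 CPM in the LPS with octanal libraries (log2 fold change 4.08, SE 0.27, adjusted p = 0.00052). Cxcl3, the last of them (chr5:90786103-90789600), was at 37.5, 35.7 and 21.4 CPM in the untreated libraries and 177, 221 and 148 CPM in the LPS with octanal libraries (log2 fold change 2.53, SE 0.28, adjusted p = 0.00258). These were the 3 members called among 12 tested CXC chemokine genes, none of which was called lower by edgeR, and the median log2 fold change of the list was 0.54. Without untreated replicate 2, 5 of the 12 were called higher. DESeq2 called 5 higher and 1 lower, limma-voom 3 and 0, and at an unadjusted p under 0.05 there were 5 higher and 1 lower. In the LPS libraries Cxcl2 stood at 349 ± 58.8 CPM, Cxcl1 at 23.2 ± 6.19 CPM and Cxcl3 at 94.01 ± 28.3 CPM (mean ± SD, n = 3).

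Cxcl1, Cxcl2 and Cxcl3 lie in 1 cluster on chromosome 5. Their promoters are shown because these 3 genes rose together, beside those of Nfkbia and Nfkb2 from the NF-kappaB pathway. Each line gives 90 bases of the strand of the gene, 5′ to 3′, from the RefSeq promoter table of GRCm38.p6. Capitals mark matches to the NF-kappaB consensus motif on either strand, which overlap in the 3 chemokine genes and at the first site of Nfkb2. Only genes with a match could be shown, and each window was placed to include a match. That every line holds a match, and the like position in the 3 chemokine lines, follow from that choice. Nfkb2 has further promoters in the same table whose matches are not shown.
Cxcl1: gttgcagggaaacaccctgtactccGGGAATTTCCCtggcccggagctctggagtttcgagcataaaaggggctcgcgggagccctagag
Cxcl2: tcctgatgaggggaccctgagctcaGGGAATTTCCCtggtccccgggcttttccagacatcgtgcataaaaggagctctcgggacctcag
Cxcl3: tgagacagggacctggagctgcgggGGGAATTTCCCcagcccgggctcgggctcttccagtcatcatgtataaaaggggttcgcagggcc
Nfkbia: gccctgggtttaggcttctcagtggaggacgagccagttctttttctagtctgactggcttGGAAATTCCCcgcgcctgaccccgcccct
Nfkb2: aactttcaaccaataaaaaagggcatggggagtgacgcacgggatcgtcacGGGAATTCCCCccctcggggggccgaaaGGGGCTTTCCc

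The windows are chr5:90891149-90891238 for Cxcl1, chr5:90903777-90903866 for Cxcl2 and chr5:90786003-90786092 for Cxcl3, all on the plus strand. Those of the pathway genes are chr12:55492648-55492737 on the minus strand for Nfkbia and chr19:46304647-46304736 on the plus strand for Nfkb2. The first base of a match lay 71 bases before the start site in Cxcl1, 97 in Cxcl2, 73 in Cxcl3, 29 in Nfkbia, and 39 and 11 in Nfkb2. Of 29 genes picked for this look, 21 had a promoter in the table and 10 held a match before the start. They are a picked set and were searched only before the start, so their share cannot be compared with the shares below. Over windows of 250 bases before to 50 after the start, searched on both strands, the motif was in 52 of 280 genes called higher (18.6%) and 93 of 691 called lower (13.5%). It was in 1301 of 10535 tested genes (12.3%) and 2581 of all 27025 genes with a promoter (9.55%). Of 1252 called genes with a symbol, 971 matched the promoter table. The AP-1 motif TGANTCA was in 6.79% of genes called higher, 9.55% of those called lower, 6.60% of tested genes and 8.97% of all genes. For TGACNNNGC, the antioxidant response element, these shares were 18.6%, 16.4%, 17.0% and 14.0%. A match describes the letters of the window and is no evidence of binding.

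Among the CC chemokines, which recruit monocytes and T cells, Ccl3, Ccl4 and Ccl5 rose and Ccl6 fell, of 8 tested. Ccl3 was at 61.3, 90.3 and 168 CPM in the untreated libraries and 533, 1021 and 900.3 CPM in the LPS with octanal libraries (log2 fold change 2.94, SE 0.39, adjusted p = 0.00503). Its neighbour Ccl4 had 22.6, 43.97 and 61.6 CPM against 149, 267 and 271 CPM (log2 fold change 2.42, SE 0.36, adjusted p = 0.00709). Ccl5 had 27.1, 32.8 and 20.1 CPM against 260.4, 155 and 103 CPM (log2 fold change 2.69, SE 0.33, adjusted p = 0.00359), and here replicate 1 of the treated group was highest. T cells and NK cells also express Ccl5. Ccl5 is itself 1 of 13 NK cell and cytotoxic markers and the only one called. The other 12 summed to 10.6, 47.6 and 30.5 CPM in the untreated libraries and 83.01, 53.1 and 49.6 CPM in the LPS with octanal libraries, and the T cell markers to 182, 1227 and 765 CPM in the untreated libraries and 2039, 1477 and 1286 CPM in the LPS with octanal libraries. Both sums had the order of Ccl5 among the treated libraries, and their part in its rise was not tested. In none of the 4 did the libraries of the groups overlap. Ccl6 had 58.5, 38.8 and 37.6 CPM against 8.49, 7.57 and 17.9 CPM (log2 fold change -1.99, SE 0.38, adjusted p = 0.0181). Ccl6 lost its call without untreated replicate 1 or LPS with octanal replicate 1 or 2 (adjusted p between 0.0539 and 0.0768).

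**Figure D2:**
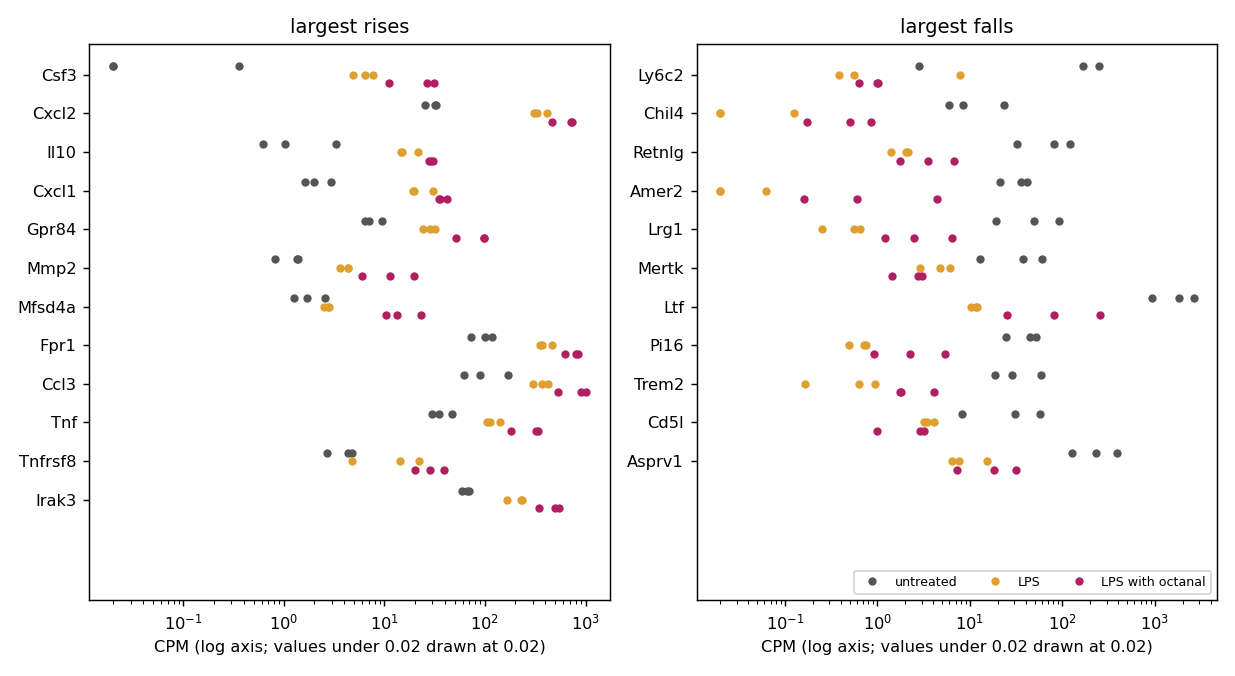
CPM per library on a log axis for called genes with 10 CPM or more in the higher group, showing the 12 that rose most and 11 of the 12 that fell most, with untreated, LPS and LPS with octanal libraries as points in separate colours. The libraries of untreated and LPS with octanal do not overlap for any of these genes, by the rule that chose them, and Ly6c2 in untreated replicate 2 lies far below the other untreated libraries.

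Of 20 tested inflammatory cytokine genes 5 rose, 2 fell and 13 did not pass the test. Tnf, which encodes tumour necrosis factor, was at 29.9, 34.8 and 47.2 CPM in the untreated libraries and 183, 335 and 320.2 CPM in the LPS with octanal libraries (log2 fold change 2.91, SE 0.27, adjusted p = 0.00131). Il1b, the precursor of interleukin 1 beta, had 21.2, 9.85 and 10.5 CPM against 60.5, 42.8 and 45.3 CPM (log2 fold change 1.83, SE 0.31, adjusted p = 0.0115). Il12a, a subunit of interleukin 12, had 2.58, 2.13 and 1.38 CPM against 13.01, 14.2 and 13.4 CPM (log2 fold change 2.73, SE 0.38, adjusted p = 0.00565). In these 3 genes every treated library was above every untreated one. Csf3, the granulocyte growth factor G-CSF, was at 0, 0.360 and 0 CPM in the untreated libraries and 11.05, 26.8 and 31.4 CPM in the LPS with octanal libraries, from 0, 11 and 0 counts in the untreated libraries (log2 fold change 7.59, SE 0.94, adjusted p = 0.00394). Its log2 fold change was 6.94 with untreated replicate 1 left out and 12.65 with untreated replicate 2 left out. The last of these rests on untreated libraries without any count and is no bound. Ebi3, a subunit shared by interleukins 27 and 35, had 45.7, 45.8 and 65.3 CPM against 109, 179.98 and 169 CPM (log2 fold change 1.55, SE 0.25, adjusted p = 0.00985). Ebi3 lost its call without LPS with octanal replicate 2 (adjusted p = 0.0503). In the other direction, Tnfsf14 had 11.7, 5.40 and 7.15 CPM against 2.62, 1.96 and 2.34 CPM (log2 fold change -1.81, SE 0.32, adjusted p = 0.0147). Tnfsf14 lost its call without LPS with octanal replicate 2 (adjusted p = 0.0662). Il18 had 11.7, 9.72 and 16.6 CPM against 3.77, 3.22 and 6.39 CPM (log2 fold change -1.51, SE 0.33, adjusted p = 0.0275). Il18 lost its call without untreated replicate 1 or 3, LPS replicate 3 or LPS with octanal replicate 1 or 2 (adjusted p between 0.0512 and 0.11). The median log2 fold change of the 20 was 0.73, and 14 of them were positive. Without untreated replicate 2, 8 rose, and fewer than 2 falls were left without each of the libraries at which the calls on Tnfsf14 or Il18 were lost.

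Of 26 tested NF-kappaB subunits and regulators 12 rose by edgeR, activators and inhibitors among them, 0 fell and 14 did not pass, with a median log2 fold change of 0.57. DESeq2 called 16 higher and 0 lower, limma-voom 12 and 0, and at an unadjusted p under 0.05 there were 18 higher and 0 lower. Between 9 and 12 were called higher when single libraries were left out. Ikbke, a kinase of the family that activates NF-kappaB and interferon regulatory factors, had 69.4, 82.01 and 60.2 CPM in the untreated libraries and 311, 497 and 453 CPM in the LPS with octanal libraries (log2 fold change 2.57, SE 0.19, adjusted p = 0.00052). Nfkb2, the precursor of the p52 subunit, went from 133, 141 and 141 CPM to 276, 282 and 271 CPM (log2 fold change 1.00, SE 0.08, adjusted p = 0.00072). Nfkbia, which encodes the inhibitor IkappaB alpha, went from 172, 169 and 178 CPM to 397, 529 and 485 CPM (log2 fold change 1.44, SE 0.12, adjusted p = 0.0008). The groups did not overlap for any of these genes, and Nfkb2 varied least within them. Nfkbiz, a nuclear IkappaB protein needed for a set of late targets, had 56.5, 72.02 and 72.3 CPM against 202, 255 and 307 CPM (log2 fold change 1.93, SE 0.16, adjusted p = 0.00084), and Birc3, a ubiquitin ligase that restrains the non-canonical arm, had 114, 115 and 127 CPM against 235, 215 and 234 CPM (log2 fold change 0.94, SE 0.09, adjusted p = 0.00143). In the LPS libraries Ikbke was at 241 ± 12.6 CPM, Nfkb2 at 244 ± 10.7 CPM and Nfkbia at 318 ± 18.1 CPM (n = 3).

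Genes that damp the response to LPS were called higher in 8 of 17 cases. Il10, the anti-inflammatory cytokine, was at 0.619, 3.31 and 1.03 CPM in the untreated libraries and 28.98, 27.5 and 30.4 CPM in the LPS with octanal libraries (log2 fold change 4.14, SE 0.54, adjusted p = 0.00475), and its log2 fold change was 5.14 with untreated replicate 2 left out. Irak3, an inactive kinase that blocks Toll-like receptor signalling, was at 66.1, 58.9 and 69.7 CPM in the untreated libraries and 347, 499 and 540.1 CPM in the LPS with octanal libraries (log2 fold change 2.83, SE 0.20, adjusted p = 0.00052). Zc3h12a, a nuclease that degrades cytokine mRNAs, had 50.6, 66.1 and 61.7 CPM against 110.1, 167 and 158 CPM (log2 fold change 1.29, SE 0.20, adjusted p = 0.00816). All 3 were without overlap between groups. Acod1, the enzyme that makes itaconate, had 283, 118 and 212 CPM against 652, 899 and 698 CPM (log2 fold change 1.88, SE 0.29, adjusted p = 0.00863). Tnfrsf1b, which encodes TNF receptor 2, had 853, 586 and 612 CPM against 1389.8, 1748 and 1716 CPM (log2 fold change 1.24, SE 0.19, adjusted p = 0.00796). The 8 rises among 17 tested feedback genes became 5 without LPS with octanal replicate 2. Il1r2, the decoy receptor of interleukin 1, went the other way, from 17.6, 58.1 and 19.7 CPM to 4.23, 1.83 and 3.72 CPM (log2 fold change -3.29, SE 0.51, adjusted p = 0.00863), or -2.53 with untreated replicate 2 left out. Without untreated replicate 2, 2 feedback genes were called lower. Neutrophils also express Il1r2, and 7 of 19 neutrophil markers fell in the same libraries. Il1r2 was highest in untreated replicate 2, where the summed neutrophil markers were lowest (28256, 15945 and 31067 CPM in the untreated libraries). Among the treated libraries both were lowest in replicate 2 (sums of 9525, 6536 and 14828 CPM). The part of neutrophils in the fall of Il1r2 was not tested.

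Receptors changed in both directions. Fpr1, a receptor for formylated bacterial peptides, was at 118, 72.4 and 99.1 CPM in the untreated libraries and 625, 811 and 845 CPM in the LPS with octanal libraries (log2 fold change 2.98, SE 0.22, adjusted p = 0.00052). Gpr84, a receptor for medium-chain fatty acids, had 9.55, 6.42 and 6.98 CPM against 51.2, 97.5 and 98.8 CPM (log2 fold change 3.43, SE 0.28, adjusted p = 0.00072). Fas, a death receptor, had 21.98, 22.1 and 23.7 CPM against 124, 167 and 155 CPM (log2 fold change 2.72, SE 0.21, adjusted p = 0.00053). In each of the 3, the lowest treated library was above the highest untreated one. Ccr1, a receptor for Ccl3 and Ccl5, fell from 255, 166 and 319.99 CPM to 58.2, 31.9 and 83.6 CPM (log2 fold change -2.09, SE 0.34, adjusted p = 0.0106). Cxcr2, the receptor of Cxcl1 and Cxcl2, fell from 299, 159 and 307 CPM to 15.7, 7.98 and 47.2 CPM (log2 fold change -3.44, SE 0.60, adjusted p = 0.0139), or -4.45 with LPS with octanal replicate 3 left out. The treated libraries of these 2 receptors were below all untreated ones, and replicate 3 was the highest of them. Cxcr2 is itself on the list of 19 neutrophil markers. That list summed to 28256, 15945 and 31067 CPM in the untreated libraries and 9525, 6536 and 14828 CPM in the LPS with octanal libraries. Ccr1 and Cxcr2 had the order of these sums within each group, and the part of neutrophils in their falls was not tested. Of 20 chemoattractant receptor genes 3 rose and 6 fell. The count of rises became 1 on leaving out LPS replicate 2 or 3 or LPS with octanal replicate 2 or 3, and that of falls 2 on leaving out LPS with octanal replicate 2 or untreated replicate 1 and 3 on leaving out LPS replicate 2 or 3 or LPS with octanal replicate 1 or 3. Cd14, the co-receptor of LPS, was at 711, 405 and 482 CPM in the untreated libraries and 1049, 1422 and 1269.9 CPM in the LPS with octanal libraries (log2 fold change 1.23, SE 0.22, adjusted p = 0.0153). Cd14 lost its call without LPS with octanal replicate 2 (adjusted p = 0.0662). Tnfrsf8, which encodes CD30, had 4.79, 2.72 and 4.39 CPM against 20.1, 28.6 and 39.2 CPM (log2 fold change 2.88, SE 0.53, adjusted p = 0.0159). Tnfrsf8 lost its call without LPS with octanal replicate 2 (adjusted p = 0.0546).

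Inflammasome genes changed in both directions. Nlrp3, the sensor, was at 32.4, 19.9 and 23.98 CPM in the untreated libraries and 78.7, 124 and 116 CPM in the LPS with octanal libraries (log2 fold change 2.06, SE 0.22, adjusted p = 0.0022). Mefv, which encodes pyrin, had 46.7, 15.4 and 24.4 CPM against 103, 125 and 132 CPM (log2 fold change 2.06, SE 0.34, adjusted p = 0.0112), and Casp4, the caspase that binds LPS in the cytosol, had 21.4, 17.8 and 14.7 CPM against 31.3, 42.5 and 33.3 CPM (log2 fold change 0.99, SE 0.17, adjusted p = 0.0134). P2rx7, the ATP-gated channel upstream of Nlrp3, fell from 74.3, 61.7 and 48.3 CPM to 20.9, 17.3 and 21.6 CPM (log2 fold change -1.62, SE 0.17, adjusted p = 0.00195). None of these 4 genes overlapped between groups. With Il1b, 4 of 18 tested genes rose and 3 fell, the falls being those of P2rx7, Il18 and Naip5, a sensor of bacterial flagellin (log2 fold change -0.87, SE 0.20, adjusted p = 0.0319). The calls were lost for Naip5 without untreated replicate 1, LPS replicate 1, 2 or 3 or LPS with octanal replicate 1, 2 or 3 (adjusted p between 0.0505 and 0.0986) and for Il18 without untreated replicate 1 or 3, LPS replicate 3 or LPS with octanal replicate 1 or 2 (adjusted p between 0.0512 and 0.11), so between 1 and 4 genes were called lower when single libraries were left out, with 4 without untreated replicate 2.

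Interferon-stimulated genes were higher in the mean but mostly not called. All 32 tested had a positive log2 fold change, with a median of 1.25, and in 21 of them the groups did not overlap (13.5% of all genes did so upwards), yet 2 of 32 passed. Oasl1 was at 2.26, 6.45 and 2.02 CPM in the untreated libraries and 38.6, 13.96 and 17.7 CPM in the LPS with octanal libraries (log2 fold change 2.71, SE 0.62, adjusted p = 0.0321) and Isg15, a ubiquitin-like modifier, at 5.16, 9.82 and 3.15 CPM in the untreated libraries and 40.7, 14.04 and 24.7 CPM in the LPS with octanal libraries (log2 fold change 2.13, SE 0.56, adjusted p = 0.0491). Replicate 1 was the highest treated library for both, and replicate 2 the lowest. The calls were lost for Oasl1 without untreated replicate 1 or 3, LPS replicate 3 or LPS with octanal replicate 1, 2 or 3 (adjusted p between 0.0528 and 0.101) and for Isg15 without untreated replicate 1 or 3, LPS replicate 2 or 3 or LPS with octanal replicate 1, 2 or 3 (adjusted p between 0.0571 and 0.134), and Oasl1 was at 3.43 with untreated replicate 2 left out. The number of calls was 0 on leaving out LPS replicate 3 or LPS with octanal replicate 1 or 2 or 3 or untreated replicate 1 or 3, 7 on leaving out LPS replicate 1 and 10 on leaving out untreated replicate 2. DESeq2 called 15 of the 32 higher and limma-voom 0. Of 15 guanylate-binding proteins and related GTPases all had a positive log2 fold change (median 1.43) and 4 were called. DESeq2 called 9 of the 15, limma-voom 1 and edgeR on the 6 compared libraries alone 1, and 11 were at an unadjusted p under 0.05. Gbp6 had 0.592, 0.458 and 0.850 CPM against 7.71, 4.32 and 2.63 CPM (log2 fold change 2.95, SE 0.60, adjusted p = 0.0219). Gbp6 lost its call without untreated replicate 1 or LPS with octanal replicate 1 or 2 (adjusted p between 0.0548 and 0.0746). The number of calls was 0 on leaving out LPS with octanal replicate 1 or 2 or untreated replicate 1 and 1 on leaving out LPS replicate 2 or 3 or untreated replicate 3.

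Of 24 tested genes of redox defence 7 rose and 2 fell. Sod2, the superoxide dismutase of mitochondria and also an NF-kappaB target, was at 227, 129.9 and 149 CPM in the untreated libraries and 665, 1126 and 917 CPM in the LPS with octanal libraries (log2 fold change 2.42, SE 0.27, adjusted p = 0.00258). Nqo1, a quinone reductase under the factor NRF2, had 25.8, 19.5 and 18.7 CPM against 52.6, 57.3 and 55.1 CPM (log2 fold change 1.36, SE 0.15, adjusted p = 0.00258). For both genes the groups did not overlap, and Nqo1 varied little within them. Slc7a11, the cystine importer, was among the most abundant transcripts that rose, at 1117, 995 and 1661 CPM in the untreated libraries and 2149.6, 2976 and 2842 CPM in the LPS with octanal libraries (log2 fold change 1.08, SE 0.26, adjusted p = 0.0394). Slc7a11 lost its call without untreated replicate 1 or 2, LPS replicate 2 or 3 or LPS with octanal replicate 1, 2 or 3 (adjusted p between 0.0592 and 0.147). Txnrd1, thioredoxin reductase, was abundant as well, with 779, 575 and 610.03 CPM against 925, 1326 and 1129.9 CPM (log2 fold change 0.78, SE 0.21, adjusted p = 0.0494). Txnrd1 lost its call without untreated replicate 1, 2 or 3, LPS replicate 1, 2 or 3 or LPS with octanal replicate 1, 2 or 3 (adjusted p between 0.0526 and 0.172). Gsr, glutathione reductase, had 289, 186 and 245 CPM against 412, 586 and 534 CPM (log2 fold change 1.09, SE 0.22, adjusted p = 0.0222). Gsr lost its call without untreated replicate 3 or LPS with octanal replicate 2 or 3 (adjusted p between 0.0509 and 0.096). The glutathione peroxidase genes Gpx1 (-0.88) and Gpx4 (-0.39) went the other way, with the calls lost for Gpx1 without untreated replicate 1 or 3, LPS replicate 1, 2 or 3 or LPS with octanal replicate 1, 2 or 3 (adjusted p between 0.0551 and 0.135) and for Gpx4 without untreated replicate 1 or 3, LPS replicate 1, 2 or 3 or LPS with octanal replicate 1, 2 or 3 (adjusted p between 0.0791 and 0.185). The median log2 fold change was 0.36. The number of rises was 2 with edgeR on the 6 compared libraries alone and 2 on leaving out LPS with octanal replicate 2 and 4 on leaving out LPS with octanal replicate 3, and that of falls 0 in all 9 fits that left out 1 library except the one without untreated replicate 2, where it was 2. Of 20 aldehyde-metabolising enzymes, which handle compounds of the class of octanal, edgeR called 0, with 5 at an unadjusted p under 0.05, while DESeq2 called 4 lower and limma-voom 0. Without untreated replicate 2 or 3, 1 of them was called lower. They had a median of -0.12 and a range of -0.97 to 0.68. Over all genes tested edgeR called 8.67%, so 0 of 20 does not stand apart from that share.

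Of 16 tested prostaglandin and leukotriene genes 3 rose and 3 fell. Ptgs2, which encodes cyclooxygenase 2, was at 1.96, 3.73 and 4.43 CPM in the untreated libraries and 16.8, 14.2 and 18.6 CPM in the LPS with octanal libraries (log2 fold change 2.30, SE 0.31, adjusted p = 0.00505). Ptges, the inducible prostaglandin E synthase, had 24.9, 10.1 and 10.98 CPM against 72.7, 78.98 and 64.03 CPM (log2 fold change 2.23, SE 0.35, adjusted p = 0.00921), and Ptges3, its cytosolic counterpart, had 103, 88.1 and 90.6 CPM against 145, 156 and 153 CPM (log2 fold change 0.69, SE 0.10, adjusted p = 0.00774). In turn Lta4h, the hydrolase that makes leukotriene B4, fell from 213, 113 and 194 CPM to 66.5, 62.6 and 73.8 CPM (log2 fold change -1.36, SE 0.20, adjusted p = 0.00778). The libraries of the 2 groups did not overlap for any of these. Alox5, the lipoxygenase upstream, had 100.1, 52.97 and 121 CPM against 13.1, 9.08 and 36.9 CPM (log2 fold change -2.22, SE 0.51, adjusted p = 0.0334), or -3.06 with LPS with octanal replicate 3 left out. Alox5 lost its call without untreated replicate 1 or 3, LPS replicate 1, 2 or 3 or LPS with octanal replicate 1 or 2 (adjusted p between 0.053 and 0.103). Neutrophils also express Alox5, and its order among the treated libraries was that of the summed neutrophil markers, 28256, 15945 and 31067 CPM in the untreated libraries and 9525, 6536 and 14828 CPM in the LPS with octanal libraries; their part in its fall was not tested. The number of falls was 1 on leaving out LPS replicate 1 or 2 or 3 or LPS with octanal replicate 1 or 2 or untreated replicate 1, and DESeq2 called 6 lower, limma-voom 3 and edgeR on the 6 compared libraries alone 1.

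**Figure D3:**
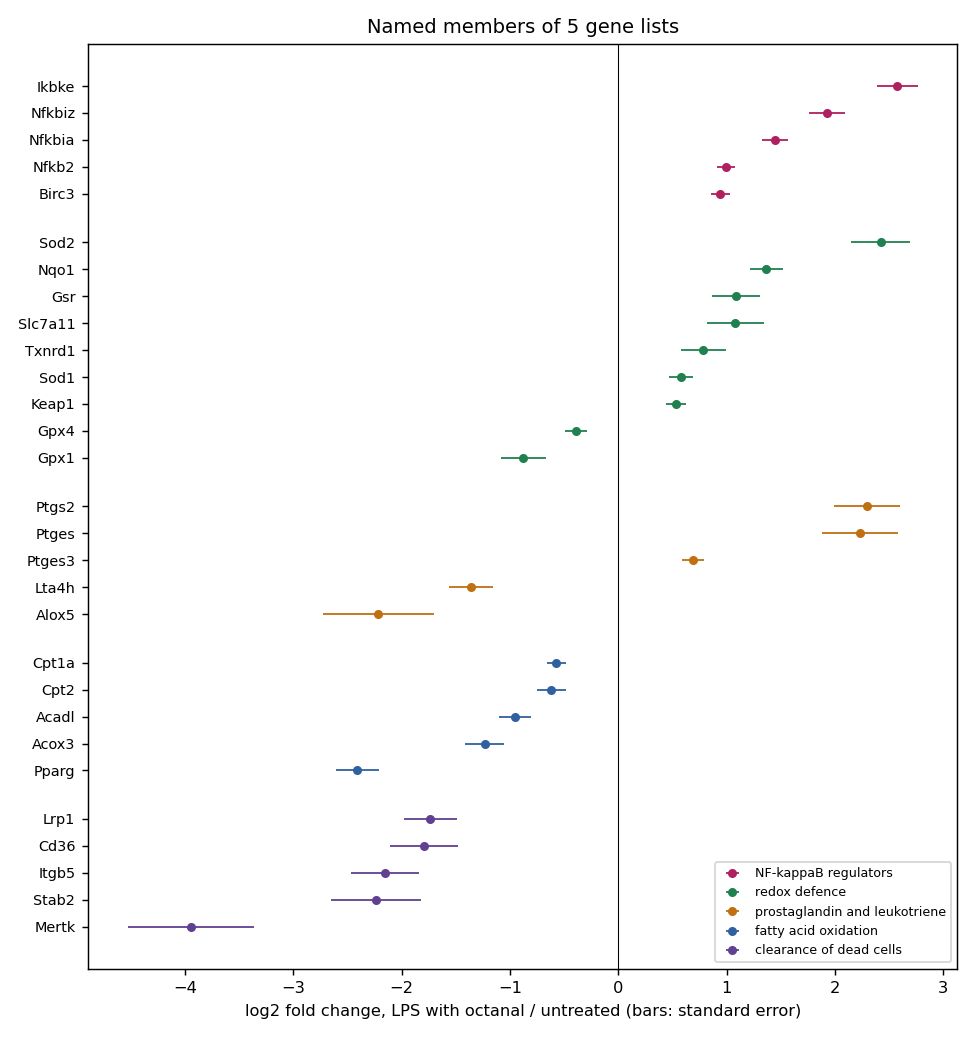
Log2 fold change of LPS with octanal over untreated with its standard error (bars) for the called genes of 5 gene lists that the rule for named genes picked. NF-kappaB regulators lie to the right of 0, fatty acid oxidation and clearance of dead cells to the left, and redox defence and the prostaglandin and leukotriene genes on both sides.

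Of the genes that the title names, Nr4a1 and Dnm1l were tested and did not pass. Nr4a1, an immediate-early nuclear receptor that non-classical monocytes need, was at 27.4, 41.9 and 14.8 CPM in the untreated libraries and 36.5, 57.9 and 61.6 CPM in the LPS with octanal libraries (log2 fold change 0.89, SE 0.34, adjusted p = 0.137). The treated libraries 2 and 3 were above all untreated ones, but replicate 1 lay within their range, and without untreated replicate 2 the gene was called, at a log2 fold change of 1.30 (adjusted p = 0.0347). Dnm1l, which encodes the fission protein Drp1, was at 81.3, 77.1 and 83.7 CPM in the untreated libraries and 98.3, 69.3 and 77.1 CPM in the LPS with octanal libraries, with overlapping groups (log2 fold change 0.02, SE 0.13, adjusted p = 0.952). Its log2 fold change turned to -0.03 in the fit without untreated replicate 2 (adjusted p = 0.914) and to -0.13 when treated replicate 1 was left out (adjusted p = 0.5001). The LPS libraries held Nr4a1 at 30.996 ± 4.79 CPM and Dnm1l at 92.02 ± 7.08 CPM (n = 3). Of 13 tested fission genes 0 rose and 1 fell, Mtfr2, a regulator of fission (log2 fold change -0.89, SE 0.19, adjusted p = 0.0274). Mtfr2 lost its call without untreated replicate 1, LPS replicate 2 or 3 or LPS with octanal replicate 1, 2 or 3 (adjusted p between 0.0523 and 0.093).

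Other mitochondrial gene lists held few calls. Over all genes tested 8.67% were called, so lists of 13 to 19 genes with 0 or 1 calls do not stand apart from that share. Of 74 nuclear genes of oxidative phosphorylation edgeR called 0, with 6 at an unadjusted p under 0.05, DESeq2 called 1 lower and limma-voom 0. Their median log2 fold change was -0.13. The same test called 0 of 13 mitochondrially encoded genes, 0 of 19 tricarboxylic acid cycle genes and 0 of 13 fusion and cristae genes. At an unadjusted p under 0.05 these were 0, 4 and 2, DESeq2 called 0, 3 and 0 of them, and limma-voom called 0 of each. Without untreated replicate 2, 1 gene each of oxidative phosphorylation, the tricarboxylic acid cycle and fusion was called lower, and without untreated replicate 3, 1 of the tricarboxylic acid cycle. Sqstm1, the autophagy receptor p62 and an NRF2 target, was the 1 of 18 mitophagy genes called. It was at 1372, 1847 and 1681 CPM in the untreated libraries and 2975, 4439 and 3775 CPM in the LPS with octanal libraries (log2 fold change 1.19, SE 0.21, adjusted p = 0.0153). Sqstm1 lost its call without LPS with octanal replicate 2 (adjusted p = 0.0727).

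Fatty acid oxidation was on the lower side. Of 25 tested genes 7 fell and 0 rose by edgeR, and the median log2 fold change was -0.44. DESeq2 called 8 lower and 0 higher, limma-voom 7 and 0, and at an unadjusted p under 0.05 there were 15 and 0. On the 6 compared libraries alone edgeR called 3 lower. Pparg, the nuclear receptor that drives lipid uptake and storage genes in macrophages, fell from 31.7, 25.99 and 21.6 CPM to 5.29, 4.70 and 4.94 CPM (log2 fold change -2.41, SE 0.20, adjusted p = 0.00072). Cpt1a, which brings fatty acids into mitochondria, fell from 205, 177 and 176 CPM to 126, 122 and 129 CPM (log2 fold change -0.57, SE 0.09, adjusted p = 0.00856). Both changed without overlap between groups, and Cpt1a by a smaller fold. Acadl, a dehydrogenase of long-chain acyl-CoA, fell from 83.3, 67.2 and 53.8 CPM to 34.8, 33.9 and 36.8 CPM (log2 fold change -0.95, SE 0.15, adjusted p = 0.0088), and Acox3, a peroxisomal oxidase, from 168, 129 and 205 CPM to 74.8, 56.9 and 82.1 CPM (log2 fold change -1.23, SE 0.18, adjusted p = 0.00734). Falls numbered 4 on leaving out LPS replicate 2 or LPS with octanal replicate 2 or 3 or untreated replicate 1. Apoe, an apolipoprotein of cholesterol efflux, fell from 1036, 661 and 519 CPM to 151, 119.8 and 131 CPM (log2 fold change -2.46, SE 0.29, adjusted p = 0.00335). Of 13 cholesterol efflux genes and LXR targets 3 fell, and the number was 1 on leaving out LPS with octanal replicate 2 and 5 on leaving out untreated replicate 3.

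Genes for the uptake of dead cells were on the lower side. Of 17 tested efferocytosis genes 10 fell and 0 rose by edgeR, with a median log2 fold change of -1.73. DESeq2 called 13 lower and 0 higher, limma-voom 8 and 0, edgeR on the 6 compared libraries alone 5 and 0, and at an unadjusted p under 0.05 there were 13 and 0. Mertk, the receptor tyrosine kinase that recognises bridged phosphatidylserine, went from 60.8, 37.6 and 12.8 CPM to 2.76, 1.45 and 3.03 CPM (log2 fold change -3.94, SE 0.59, adjusted p = 0.00734). Lrp1, a large scavenging receptor, went from 1282, 765 and 699.6 CPM to 278, 268 and 279.5 CPM (log2 fold change -1.73, SE 0.24, adjusted p = 0.00565). Itgb5, an integrin subunit for bridged apoptotic cells, went from 70.9, 45.1 and 42.1 CPM to 11.9, 10.8 and 12.9 CPM (log2 fold change -2.15, SE 0.31, adjusted p = 0.00707). Treated libraries of each lay below all untreated ones, among which replicate 1 was highest. The treated range was narrow for Lrp1 and Itgb5, while Mertk was low and ran from 1.45 to 3.03 CPM. Cd36, a scavenger receptor, had 1237, 896 and 776 CPM against 249, 257 and 333 CPM (log2 fold change -1.79, SE 0.32, adjusted p = 0.0144). Cd36 lost its call without LPS with octanal replicate 2 (adjusted p = 0.0687). The fall count was 3 on leaving out LPS with octanal replicate 2 and 6 on leaving out LPS with octanal replicate 1 or 3. In the LPS libraries Mertk was at 4.56 ± 1.62 CPM and Lrp1 at 144 ± 28.1 CPM (n = 3). The macrophage marker list, which shares Mertk, moved in the same direction: 9 of 16 fell and 1 rose, and its sum was 5079, 4970.3 and 3950.01 CPM in the untreated libraries and 3659.98, 3511 and 3748 CPM in the LPS with octanal libraries. The falls of the list numbered 2 on leaving out LPS with octanal replicate 2 and 5 on leaving out LPS with octanal replicate 3, and DESeq2 called 10, limma-voom 5 and edgeR on the 6 compared libraries alone 4. The part of macrophage numbers in these falls was not tested.

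Genes of lysosomal proteases and of the matrix were called on the lower side too. Of 13 cathepsin genes 6 fell and 0 rose by edgeR (at an unadjusted p under 0.05 there were 8 lower and 0 higher, DESeq2 called 7 and 0, limma-voom 6 and 0, the 6 compared libraries alone gave 2 and 0), and the number of falls was 2 on leaving out LPS with octanal replicate 2 or 3 and 3 on leaving out untreated replicate 1. Ctsk, cathepsin K, went from 146, 89.2 and 107 CPM to 43.7, 36.5 and 37.5 CPM (log2 fold change -1.54, SE 0.18, adjusted p = 0.00341), and Ctsc, the cathepsin that activates granule proteases, from 109.9, 81.3 and 66.4 CPM to 44.5, 34.3 and 41.7 CPM (log2 fold change -1.09, SE 0.18, adjusted p = 0.0112). Atp6v0d2, part of the lysosomal proton pump, went from 127, 51.5 and 81.1 CPM to 12.4, 9.18 and 11.7 CPM (log2 fold change -2.96, SE 0.31, adjusted p = 0.00196). All 3 genes were without overlap. Of 24 matrix genes 7 fell and 0 rose by edgeR, with 13 lower and 1 higher at an unadjusted p under 0.05, 10 and 1 by DESeq2, 4 and 0 by limma-voom and 2 and 0 on the 6 compared libraries alone. Calls of a fall numbered 3 on leaving out LPS with octanal replicate 2, 4 on leaving out LPS with octanal replicate 3 or untreated replicate 1 and 11 on leaving out untreated replicate 2. Timp2, an inhibitor of metalloproteinases, went from 78.8, 58.99 and 86.3 CPM to 27.5, 26.8 and 30.02 CPM (log2 fold change -1.41, SE 0.14, adjusted p = 0.00192), and Mmp19 from 59.7, 119 and 51.04 CPM to 16.5, 8.57 and 13.4 CPM (log2 fold change -2.58, SE 0.40, adjusted p = 0.00933). Mmp2, a gelatinase outside that list, was among the 12 largest rises, at 1.37, 0.818 and 1.35 CPM in the untreated libraries and 6.01, 19.6 and 11.4 CPM in the LPS with octanal libraries (log2 fold change 3.38, SE 0.44, adjusted p = 0.00461). Lgals3, which encodes galectin 3, was one of the most abundant transcripts that fell, at 2922, 2121 and 2059 CPM in the untreated libraries and 851, 727 and 891 CPM in the LPS with octanal libraries (log2 fold change -1.52, SE 0.19, adjusted p = 0.00392), as was Gpnmb, at 6119, 3334 and 4747 CPM in the untreated libraries and 1713, 2311 and 1447 CPM in the LPS with octanal libraries (log2 fold change -1.38, SE 0.28, adjusted p = 0.0231). Gpnmb lost its call without untreated replicate 1 or LPS with octanal replicate 1, 2 or 3 (adjusted p between 0.0546 and 0.0801).

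The other abundant transcripts that changed had calls that rested on several libraries. Slc3a2, the partner chain of Slc7a11 in cystine import, had 701, 621 and 761 CPM against 949, 1265 and 1149 CPM (log2 fold change 0.69, SE 0.16, adjusted p = 0.0336). Slc3a2 lost its call without untreated replicate 1 or 2, LPS replicate 1, 2 or 3 or LPS with octanal replicate 2 or 3 (adjusted p between 0.0579 and 0.146). Chil1, a chitinase-like protein, had 603, 326 and 660.4 CPM against 965, 1551 and 1509 CPM (log2 fold change 1.34, SE 0.33, adjusted p = 0.0413). Chil1 lost its call without untreated replicate 1, 2 or 3, LPS replicate 1 or 3 or LPS with octanal replicate 2 or 3 (adjusted p between 0.0537 and 0.141). Both were higher in every treated than in any untreated library, and treated replicate 1 was nearest to the untreated ones. Among falls, Vim, vimentin, had 1728, 1162 and 1432 CPM against 730.2, 659.96 and 858 CPM (log2 fold change -0.94, SE 0.18, adjusted p = 0.017). Vim lost its call without LPS with octanal replicate 1 or 2 (adjusted p between 0.0549 and 0.0888). Ctss, cathepsin S, had 2599, 1036 and 1272 CPM against 650.1, 499.6 and 471 CPM (log2 fold change -1.60, SE 0.32, adjusted p = 0.0205). Ctss lost its call without LPS with octanal replicate 2 or 3 (adjusted p between 0.0627 and 0.089).

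**Figure D4:**
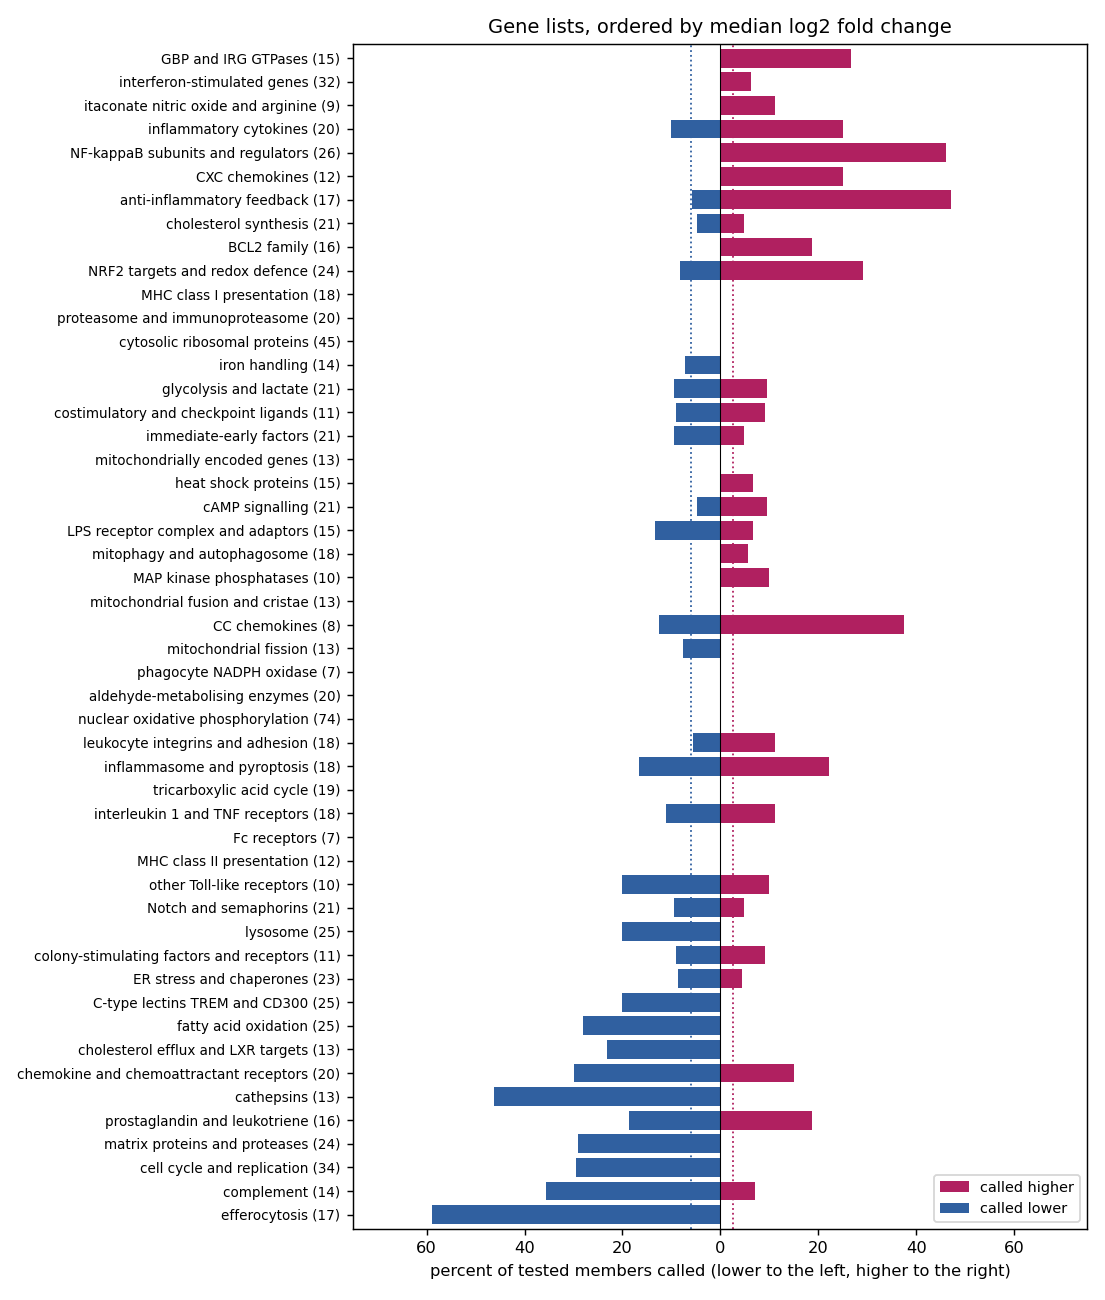
Share of tested members called higher (to the right) and lower (to the left) in 50 pathway gene lists, ordered by their median log2 fold change with the number of tested members in parentheses. Dotted lines mark the shares over all genes, 2.63% higher and 6.03% lower; efferocytosis lies at the bottom, and the NF-kappaB and feedback lists have the longest bars to the right.

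Retnlg and Ltf of the neutrophil marker list were among the 12 largest falls. Retnlg, a resistin-like protein, went from 119, 32.2 and 80.9 CPM to 3.48, 1.75 and 6.78 CPM (log2 fold change -4.28, SE 0.60, adjusted p = 0.00565), or -4.90 with LPS with octanal replicate 3 left out. Chil3, a chitinase-like protein of monocytes and neutrophils, went from 3747, 1846 and 3651 CPM to 605, 298 and 895 CPM (log2 fold change -2.36, SE 0.41, adjusted p = 0.0135), and has the near-identical copy Chil4. Asprv1, a retroviral-like protease, went from 229.8, 128 and 394 CPM to 18.3, 7.22 and 31.2 CPM (log2 fold change -3.73, SE 0.62, adjusted p = 0.0112), or -4.32 with LPS with octanal replicate 3 left out. In all 3, treated replicate 3 was highest and replicate 2 lowest, below every untreated library. Ltf, lactoferrin, had 2636, 934 and 1823 CPM against 80.4, 25.1 and 256 CPM (log2 fold change -3.90, SE 0.77, adjusted p = 0.0197), or -5.11 with LPS with octanal replicate 3 left out, and Ngp, a granule protein, had 4801, 2107 and 4752 CPM against 593, 135 and 1041 CPM (log2 fold change -2.72, SE 0.65, adjusted p = 0.0362), or -3.44 with LPS with octanal replicate 3 left out. Their calls were lost for Ltf without untreated replicate 1 or LPS with octanal replicate 1 (adjusted p between 0.053 and 0.0639) and for Ngp without untreated replicate 1 or 3, LPS replicate 1, 2 or 3 or LPS with octanal replicate 1 or 2 (adjusted p between 0.0525 and 0.093). Of 19 neutrophil markers 7 fell and 1 rose, Wfdc21 (log2 fold change 1.09, SE 0.23, adjusted p = 0.0252). Wfdc21 lost its call without untreated replicate 1, LPS replicate 3 or LPS with octanal replicate 2 or 3 (adjusted p between 0.0511 and 0.0901). The tally of falls was 3 on leaving out LPS with octanal replicate 1 or untreated replicate 1, 4 on leaving out LPS with octanal replicate 2 and 12 on leaving out untreated replicate 2, and DESeq2 called 12, limma-voom 8 and edgeR on the 6 compared libraries alone 3. The summed level of the list ran from 15945 to 31067 CPM in the untreated libraries and from 6536 to 14828 CPM in the LPS with octanal libraries, and its part in these falls was not tested. Pi16, a peptidase inhibitor, went from 52.4, 24.4 and 45.02 CPM to 2.24, 0.913 and 5.43 CPM (log2 fold change -3.83, SE 0.59, adjusted p = 0.0085), or -4.70 with LPS with octanal replicate 3 left out.

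Other genes among the 12 largest falls had calls that ended without at least 1 library. Lrg1, a secreted glycoprotein of neutrophil granules, had 92.3, 19.4 and 49.7 CPM against 2.47, 1.21 and 6.39 CPM (log2 fold change -4.01, SE 0.73, adjusted p = 0.0154), or -3.39 with untreated replicate 1 left out and -4.88 with LPS with octanal replicate 3 left out. Lrg1 lost its call without LPS with octanal replicate 1 or 2 (adjusted p between 0.0506 and 0.0554). Chil4 had 8.47, 5.96 and 23.2 CPM against 0.173, 0.510 and 0.856 CPM (log2 fold change -4.62, SE 0.85, adjusted p = 0.0162), or -3.78 with untreated replicate 3 left out. Chil4 lost its call without LPS with octanal replicate 2 (adjusted p = 0.0754). Untreated replicate 2 was lowest among untreated libraries for both genes. Amer2, a regulator of Wnt signalling, had 35.9, 21.2 and 41.3 CPM against 0.604, 0.161 and 4.41 CPM (log2 fold change -4.27, SE 0.96, adjusted p = 0.0304), or -6.44 with LPS with octanal replicate 3 left out. Amer2 lost its call without untreated replicate 1 or 3, LPS replicate 2 or 3 or LPS with octanal replicate 1 or 2 (adjusted p between 0.0521 and 0.0786). Cd5l, a secreted macrophage protein, had 57.1, 30.7 and 8.25 CPM against 3.19, 0.994 and 2.86 CPM (log2 fold change -3.77, SE 0.68, adjusted p = 0.0154), or -3.05 with untreated replicate 1 left out. Cd5l lost its call without LPS with octanal replicate 2 (adjusted p = 0.0576).

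Classical monocyte markers were called mostly lower, and non-classical ones in both directions. Of 13 classical monocyte markers 6 fell and 1, Cd14, rose, with a median of -1.31. The number of falls was 1 on leaving out LPS with octanal replicate 2 or 3 or untreated replicate 1 and 3 on leaving out LPS with octanal replicate 1, and without LPS with octanal replicate 2 no member was called higher (adjusted p = 0.0662 for Cd14). DESeq2 called 7 lower and 1 higher, limma-voom 2 and 1, and edgeR on the 6 compared libraries alone 0 and 0. Ly6c2 was called lower (log2 fold change -7.30, SE 1.71, adjusted p = 0.035), from an untreated group that ran from 2.82 to 249 CPM, and its log2 fold change was -7.89 with untreated replicate 2 left out and -6.57 with untreated replicate 3 left out. Ly6c2 lost its call without untreated replicate 1 or 3 or LPS with octanal replicate 1, 2 or 3 (adjusted p between 0.0635 and 0.128). Of 12 non-classical markers 2 rose and 3 fell. Pou2f2, a transcription factor, had 40.7, 46.2 and 19.5 CPM against 119, 159 and 155 CPM (log2 fold change 2.02, SE 0.29, adjusted p = 0.00616) and Cebpb, a factor that non-classical monocytes depend on, 289.7, 273 and 249 CPM against 405, 625 and 511 CPM (log2 fold change 0.92, SE 0.16, adjusted p = 0.0131). Fabp4, a fatty acid carrier, fell from 12.99, 12.05 and 6.91 CPM to 2.45, 1.58 and 1.91 CPM (log2 fold change -2.43, SE 0.29, adjusted p = 0.00359). No library of 1 group lay within the range of the other for these 3 genes. The number of falls among non-classical markers was 1 on leaving out LPS with octanal replicate 2. Trem2, a lipid-sensing receptor of macrophages, had 58.7, 18.9 and 28.5 CPM against 4.11, 1.75 and 1.78 CPM (log2 fold change -3.79, SE 0.62, adjusted p = 0.0111). Trem2 lost its call without LPS with octanal replicate 2 (adjusted p = 0.0546). Adgre1, which encodes F4/80, was the macrophage marker that rose, with 149, 83.4 and 66.1 CPM against 211, 363 and 213 CPM (log2 fold change 1.40, SE 0.35, adjusted p = 0.0427). Adgre1 lost its call without untreated replicate 2 or 3, LPS replicate 2 or 3 or LPS with octanal replicate 1, 2 or 3 (adjusted p between 0.0582 and 0.138).

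**Figure D5:**
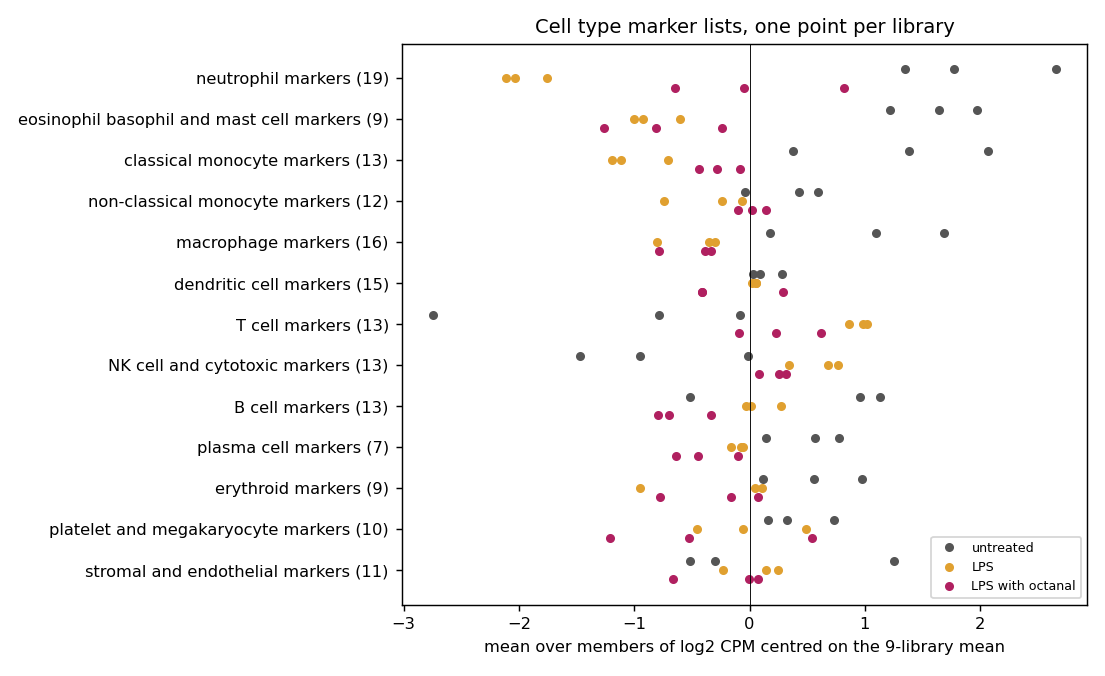
Mean over the members of each marker list of log2 CPM centred on the mean of 9 libraries (horizontal axis), with 1 point per library and the number of tested members in parentheses. Neutrophil and classical monocyte lists are highest in the untreated libraries (grey), and the NK cell list is lowest there. The T cell list overlaps narrowly between the groups compared, at -0.08 in untreated replicate 2 and -0.094 in LPS with octanal replicate 3.

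Cell cycle genes were on the lower side but depended on single libraries. Of 34 tested 10 fell and 0 rose by edgeR, with a median of -0.85. DESeq2 called 18 lower and 0 higher, limma-voom 12 and 0, and at an unadjusted p under 0.05 there were 23 and 0. Rrm2, a subunit of ribonucleotide reductase, had 46.2, 15.4 and 24.8 CPM against 5.70, 4.65 and 10.1 CPM (log2 fold change -2.08, SE 0.42, adjusted p = 0.0211). Rrm2 lost its call without untreated replicate 1 or LPS with octanal replicate 1 or 2 (adjusted p between 0.0514 and 0.0913). The groups did not overlap for it, and untreated replicate 1 was highest. Falls numbered 0 on leaving out LPS with octanal replicate 1 or 2, 1 on leaving out untreated replicate 1, 3 on leaving out LPS replicate 2, 4 on leaving out LPS replicate 1 or 3, 6 on leaving out untreated replicate 3 and 16 on leaving out untreated replicate 2. On the 6 compared libraries alone edgeR called 0 of them.

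Signalling and transcription factor genes beside these pathways moved one by one. Pde4b, a phosphodiesterase that degrades cAMP, had 39.7, 81.9 and 69.2 CPM against 182, 134 and 154 CPM (log2 fold change 1.30, SE 0.23, adjusted p = 0.0154), and Adcy9, an adenylyl cyclase, 11.8, 10.1 and 12.04 CPM against 3.48, 2.42 and 4.31 CPM (log2 fold change -1.73, SE 0.30, adjusted p = 0.0139), with the call on the latter lost without LPS with octanal replicate 2 (adjusted p = 0.0555). Egr2, an immediate-early factor, fell from 47.6, 35.3 and 24.97 CPM to 8.63, 5.80 and 6.29 CPM (log2 fold change -2.38, SE 0.26, adjusted p = 0.0022), and Ier3, another immediate-early gene, had 53.1, 38.99 and 62.8 CPM against 104, 132 and 130.4 CPM (log2 fold change 1.25, SE 0.18, adjusted p = 0.00643). Icam1, an adhesion molecule that binds leukocyte integrins, had 76.98, 67.96 and 67.8 CPM against 159, 166 and 132 CPM (log2 fold change 1.10, SE 0.11, adjusted p = 0.00196). None of these 5 genes overlapped between groups. Of 21 cAMP signalling genes 2 rose and 1 fell, and of 21 immediate-early factors 1 rose and 2 fell. Over all genes tested 2.63% rose and 6.03% fell, and so few calls in lists of 21 do not stand apart from these shares. The number of rises was 1 on leaving out LPS replicate 1 or 2 or 3 or LPS with octanal replicate 1 or 2 or 3 or untreated replicate 1 for cAMP signalling and 4 on leaving out untreated replicate 2 for immediate-early factors. The fall count was 0 on leaving out LPS with octanal replicate 2 and 3 on leaving out untreated replicate 3 for the former and 1 on leaving out LPS with octanal replicate 1 or 2 or untreated replicate 1 for the latter. Steap3, a metalloreductase of iron uptake, fell from 55.6, 28.7 and 29.4 CPM to 9.41, 6.36 and 7.93 CPM (log2 fold change -2.26, SE 0.29, adjusted p = 0.00415). Mfsd4a, a transporter-like membrane protein, rose from 1.26, 2.59 and 1.70 CPM to 13.4, 22.99 and 10.5 CPM (log2 fold change 3.08, SE 0.36, adjusted p = 0.00325).

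Against the LPS libraries, which share the fit, the LPS with octanal libraries gave 0 called genes by edgeR (0%), with 3450 of 15447 at an unadjusted p under 0.05 and a lowest adjusted p of 0.0508. DESeq2 called 1800 and limma-voom 0 in that comparison. LPS against untreated had 5072 calls (32.8%). It uses the same 3 untreated libraries as the comparison of LPS with octanal against untreated, so only single values and the order of group means are set side by side. Cxcl2 had a log2 fold change of 4.42 in LPS with octanal and 3.55 in LPS, each over untreated, and Mertk had -3.94 and -3.02. Many genes went the other way. The LPS mean lay farther from untreated than the LPS with octanal mean, in the same direction, for 628 genes called lower (67.4%). It did so for 118 genes called higher (29.0%) and for 55.8% of genes not called. Octanal was given for 18 h after LPS and LPS alone for 5 h, so time differs as well.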

How the data were processed

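RNA was sequenced from 9 libraries in 3 groups of 3, and 6 of them are compared here. The deposited table gives whole-number counts per gene and library and FPKM values, both named so per the file headers. Reads were placed on GRCm38, per the submitters' processing notes. For the aligner, the counter and the strand setting, nothing is given in the sources used here, and reads of overlapping, antisense or near-identical genes may be shared between them. Of 26780 lines, 10 hold no values and were left out, and 4735 loci named NewGene have no annotation and stayed in. No column of sample values was left unused.

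Counts, as deposited by the authors, were filtered with filterByExpr (15447 genes kept), scaled by TMM (factors 0.923 to 1.07) and tested with edgeR 4.0.16 in R 4.3.3 by the quasi-likelihood F-test, in 1 fit of all 3 groups, with Benjamini-Hochberg adjustment over all tested genes and a threshold of 0.05. CPM are counts scaled by TMM to a common library size. The procedure was tested on simulated data. Alternatives were other scalings, filters, DESeq2 1.42.0, limma 3.58.1 on counts (voom) and on log2(FPKM + 1) or log2(FPKM + 0.1) for genes reaching 1 FPKM, the 6 libraries alone, a replicate block, the table without NewGene loci, and each library left out in turn. Replicates differed by more than counting noise, with a chi-square per degree of freedom between 45 and 152.

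The genes named are Nr4a1 and Dnm1l, the 12 largest rises and falls at 10 CPM or more without overlap between groups, the 6 most abundant called genes in each direction, and of each list up to 5 members of lowest p and those called against the majority. Of these, some genes are not reported here. Csf1r and Lyz2 are named outside that rule, from the macrophage and classical monocyte marker lists. Members and lists were chosen with earlier results of these data known. Gene positions are from the GENCODE M21 annotation of GRCm38, and promoters from RefSeq. The form of the NF-kappaB motif was settled after shares under a narrower form had been seen.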

Additional observations from a re-analysis of the deposited data

How the results depend on the processing

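All genes called in both the reported test and an alternative had the same sign. The reported counts were 1339 called genes and 846 with a change of at least 2-fold. DESeq2's own test gave 2798 and 1426, the 6 libraries alone gave 404 and 342, and the 2-fold count was 549 with the filter at 10 CPM and 553 on log2(FPKM + 1). The causes of these shifts were not tested. With single libraries left out, called genes ran from 298 to 2137 and those at 2-fold from 255 to 1284. Other scalings, no filter, limma-voom, log2(FPKM + 0.1) and the table without NewGene loci kept both counts within 1.5 times. Replicate numbers gave no sign of pairing: deviations of same-numbered libraries correlated at -0.0898, -0.0782 and 0.0759. Those of differently numbered libraries ran from -0.149 to 0.208. With 3 libraries a group this cannot exclude pairing, which the labels do not state. With the replicate number as a block, 923 genes were called, 590 of them at 2-fold. Among the genes named in the text, Dnm1l and Csf1r changed sign under an alternative, and neither was called in the reported test. The log2 fold change of Dnm1l was -0.0191 with the filter at 10 CPM and ran from -0.1276 to 0.1112 with single libraries left out. That of Csf1r was 0.0513 by limma-voom, 0.0457 and 0.0475 on log2(FPKM + 1) and log2(FPKM + 0.1), and ran from -0.3024 to 0.4611 with single libraries left out. With 3 libraries a group, the spread between replicates rather than depth limits precision, and many genes named above lost their call when 1 library was left out.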

Other observations

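Markers of other leukocytes moved beside those described above. Of 9 tested eosinophil, basophil and mast cell genes 5 fell, with a median log2 fold change of -2.85. Prg2, the major basic protein of eosinophil granules, was at 7.56, 4.12 and 8.08 CPM in the untreated libraries and 0.777, 0.0806 and 0.263 CPM in the LPS with octanal libraries (log2 fold change -4.13, SE 0.67, adjusted p = 0.0106), or -5.26 with LPS with octanal replicate 1 left out. The number of falls was 1 on leaving out LPS with octanal replicate 2 and 3 on leaving out LPS with octanal replicate 3. Of 7 plasma cell genes 3 fell, among them Sdc1, a proteoglycan also made by macrophages, at 150.4, 115 and 112 CPM in the untreated libraries and 46.4, 21.5 and 38.3 CPM in the LPS with octanal libraries (log2 fold change -1.83, SE 0.26, adjusted p = 0.00652), and the number of falls was 1 on leaving out LPS with octanal replicate 2. Of 13 B cell markers edgeR called 5 lower, DESeq2 10 and limma-voom 0. With the replicate number as a block, with limma on either log2 FPKM scale or with edgeR on the 6 compared libraries alone, 0 were called lower. The number of falls among B cell markers was 0 on leaving out LPS replicate 2 or LPS with octanal replicate 1 or 2 or 3 or untreated replicate 1, 1 on leaving out LPS replicate 3, 2 on leaving out LPS replicate 1 or untreated replicate 2 and 11 on leaving out untreated replicate 3.

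The 13 tested T cell markers had log2 fold changes between 0.93 and 1.27, and edgeR called 0 of them, with 3 at an unadjusted p under 0.05, 0 by DESeq2 and 0 by limma-voom. In 9 of the 13 all treated libraries lay above all untreated ones, where 13.5% of all genes did so. The sum of the 13 was lowest in untreated replicate 1, and 4 of them were called higher without untreated replicate 2. Of 21 cholesterol synthesis genes 18 had a positive log2 fold change, with a median of 0.42, and 1 was called higher and 1 lower. DESeq2 called 8 higher and 1 lower, and limma-voom 2 and 1. Without untreated replicate 3, 5 were called higher and 0 lower, and without LPS with octanal replicate 1 these numbers were 1 and 0. Without untreated replicate 2 they were 0 and 1, and in each of the other 6 fits that left out 1 library both were 0. Of 45 cytosolic ribosomal protein genes 42 had a positive log2 fold change (49.4% over all genes tested), with a median of 0.20. The test called 0 of them, with 2 at an unadjusted p under 0.05, 1 by DESeq2, 0 by limma-voom and 8 without untreated replicate 2.

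The table held 4735 loci named NewGene, which carry no annotation. Of these, 1997 were tested, 41 rose and 46 fell, where 2.63% of all genes tested rose and 6.03% fell. Of 1190 olfactory receptor genes listed, 12 passed the filter on low counts.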
